A study of Mus musculus with 12 samples.

Results

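Mitochondrial ribosomal protein genes are the nuclear genes whose symbols begin with Mrpl or Mrps, named for the large and the small subunit of the mitochondrial ribosome. The members were all genes with such a symbol, without pseudogene copies, that had a mean of at least 10 counts over the libraries. A matching symbol was carried by 82 of the 35275 gene IDs counted, 5 of these were pseudogenes, and Mrpl53 was listed at 0 counts in all 12 libraries, which left 76 members (47 Mrpl and 29 Mrps genes on 17 chromosomes). Every member passed the filter on low counts, and their mean counts ran from 178.7 to 1306 per library.

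RNA came from wildtype mouse bone marrow-derived macrophages (BMDMs), grown for 6 days with IL-4, IL-10 and M-CSF together with DMSO (the vehicle), the PARP inhibitor olaparib, or MNA (methyl-nicotinamide, an NAD derivative), with 4 libraries per treatment. The cytokines were therefore shared by all 3 groups, and the cells were differentiated in the dish in the presence of the compound. Libraries held 21146291 to 31446849 counts. Levels are given as CPM, counts scaled to the normalised library size. The macrophage marker Cd68 was at 1227 ± 100.1 CPM in DMSO, 839 ± 24.2 in olaparib and 1073 ± 166 in MNA (SD, n = 4), and of 11 macrophage markers 4 rose and 1 fell with olaparib, and 1 rose and 2 fell with MNA (2 and 6 without MNA replicate 2). Their summed level was 36950 to 57520 CPM in DMSO, 27250 to 40510 in olaparib and 8681, 35310, 7537 and 6461 in MNA replicates 1 to 4, most of it from Chil3, a marker of IL-4-treated macrophages. The library labelled MNA replicate 2 sat among the vehicle libraries, for all genes (first principal component -23.73, DMSO -28.89 to -21.15, the other MNA libraries 37.99 to 40.78) and for the members alone, so counts and main results on MNA are given with and without it.

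The mitochondrial ribosome makes only the few proteins encoded by mitochondrial DNA, all of them subunits of the respiratory chain and ATP synthase. Its ribosomal RNAs are mitochondrial transcripts, whereas all of its proteins are encoded in the nucleus, translated in the cytosol and imported. Its proteins fall into those with a bacterial ribosomal counterpart (44 of the members) and those that occur only in mitochondria (32 members by the lists used here). Some of the names mislead, because Mrps18a and Mrps30 are structural parts of the large subunit and Mrps36 is an adaptor of the 2-oxoglutarate dehydrogenase complex of the TCA cycle. They were kept as members since the symbol was the rule.

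Many nuclear genes of mitochondria are known for promoter sites of NRF1, of the ETS factor GABP and of YY1. RefSeq promoter windows (GRCm38.p6, 250 bases before to 50 bases after the start) were matched for 67 of the 76 members. The ETS core CCGGAAG stood on either strand in 34.3% of the member windows, against 9.1% of all 27025 promoters and 18.9% of the 9736 promoters of tested genes. The YY1 core AAGATGGC was in 17.9% of member windows, 2.9% of all promoters and 5.0% of those of tested genes, and the NRF1 core GCGCATGCG in 10.4%, 1.8% and 3.9%. The E-box CACGTG, the binding motif of Myc, was in 7.5% of member windows and in 10.3% of tested genes, and the TATA box TATAAA in 6.0% and 6.6%. Member windows and those of tested genes held the same median of 21 CpG dinucleotides. The NRF1 core and its reverse complement overlap by all but 1 base, and an E-box reads the same on both strands. At least 1 of the NRF1, ETS and YY1 cores was present in 35 of the 67 windows. The YY1 cores sat near the start (median position 15 bases after it) and the NRF1 cores upstream (median 86 bases before it).

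The 4 members shown were chosen because they carry these cores and passed the test in at least 1 comparison below. Bases before their starts are printed, and those of Mrps18b and Mrpl32 run into a neighbouring gene on the opposite strand. Capitals mark matches to the NRF1, ETS and YY1 cores on either strand. Mrps18b is shown at chr17:35916599-35916690 on the minus strand, Mrpl58 at chr11:115403632-115403751 on the plus strand, Mrpl9 at chr3:94443216-94443335 on the plus strand and Mrpl32 at chr13:14613166-14613287 on the minus strand, each read 5′ to 3′ along its gene.
Mrps18b: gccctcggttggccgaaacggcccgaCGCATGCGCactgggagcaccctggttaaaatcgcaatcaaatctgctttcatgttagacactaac
Mrpl58: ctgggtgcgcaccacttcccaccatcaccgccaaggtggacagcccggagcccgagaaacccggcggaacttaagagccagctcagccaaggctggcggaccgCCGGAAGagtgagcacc
Mrpl9: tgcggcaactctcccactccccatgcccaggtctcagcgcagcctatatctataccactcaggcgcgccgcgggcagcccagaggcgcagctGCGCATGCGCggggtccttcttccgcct
Mrpl32: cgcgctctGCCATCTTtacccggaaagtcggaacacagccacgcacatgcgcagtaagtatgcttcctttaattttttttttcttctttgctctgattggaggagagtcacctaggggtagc
The capitals in Mrps18b and Mrpl9 are NRF1 cores, those in Mrpl58 an ETS core and those in Mrpl32 a YY1 core on the opposite strand. The printed bases are only part of each promoter window, and those of Mrps18b and Mrpl32 are the upstream end of it. Cores that the printed bases do not hold in full are therefore not marked. The Mrpl32 window also held NRF1 cores, the Mrps18b window an ETS core and the Mrpl58 window another ETS core. A match is a string of letters and not evidence of binding. All the printed Mrps18b bases lie downstream of the start of Ppp1r10, a gene on the opposite strand. The marked Mrpl32 core lies downstream of the start of Psma2, also on the opposite strand, and reads in the sense direction of Psma2. Which gene these cores serve was not tested. A start on the opposite strand within 1000 bp upstream belonged to another protein-coding gene for 18 of the 76 members (23.7%), compared with 10.5% of the 11815 tested protein-coding genes of the same annotation. Among these divergent neighbours were Ppp1r10 at 45 bp from Mrps18b, Psma2 at 75 bp from Mrpl32 and Sars2, a mitochondrial tRNA synthetase, at 172 bp from Mrps12.

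Levels differed far more between members than between treatments. Per kilobase of exon, the mean level over all libraries spanned 23.4-fold, with a median of 8.77 CPM per kb. The highest were Mrps21 at 42.2, Mrpl34 at 40.9, Mrpl43 at 30.3, Mrpl2 at 29.5 and Mrpl54 at 29.4 CPM per kb. In DMSO, Mrps21 (34.9 ± 2.69 CPM per kb, SD, n = 4) lay below Mrpl34 (40.4 ± 3.93), while in olaparib and MNA its mean was above that of Mrpl34. Mrpl43 (31.3 ± 1.91), Mrpl54 (31.6 ± 2.68) and Mrpl2 (31.1 ± 1.46) were within their spread of each other. The lowest were Mrps35 at 1.81, Mrps30 at 1.86 and Mrpl47, a protein near the exit tunnel, at 2.11 CPM per kb. Exon lengths were the union of all annotated isoforms (8631 bp for Mrps35, 607 bp for Mrpl34), so a gene with long rare isoforms appears lower than its main transcript. The order of the members was nearly the same in the treated groups, with a rank correlation of group means of 0.983 for DMSO and olaparib and 0.979 for DMSO and MNA over the 76 genes, which share libraries and gene lengths.

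**Figure D1:**
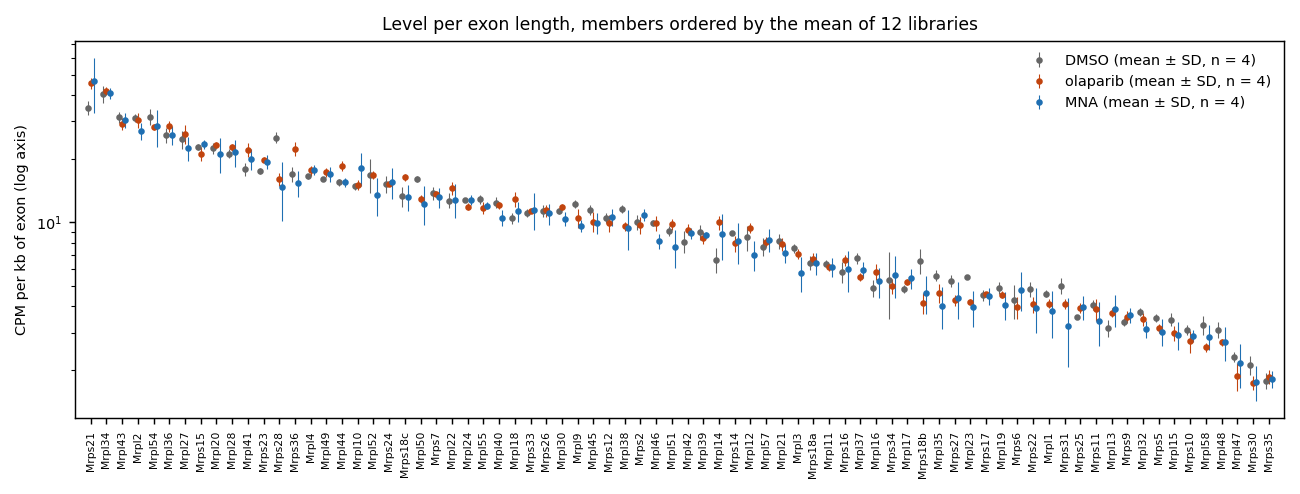
Level of each of the 76 members per kilobase of exon (log axis, CPM per kb), ordered by the mean of 12 libraries, with points for the mean and bars for the SD of 4 libraries in DMSO, olaparib and MNA. The members span 23.4-fold and keep nearly the same order in the 3 treatments (rank correlations of 0.983 and 0.979 with DMSO).

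Single libraries of a group were close for DMSO and olaparib, with a median coefficient of variation over members of 6.05% and 5.90%, and wider apart for MNA at 13.7%, or 9.71% without MNA replicate 2. On the first principal component of the members alone (47.8% of the variance), DMSO libraries lay between -1.35 and -1.07, olaparib between 0.25 and 0.49, and MNA replicates 1, 3 and 4 between 1.48 and 1.68, with MNA replicate 2 at -1.24. MNA replicate 1 stood apart on the second component (23.0%) at 2.09, with the other 11 libraries between -0.91 and 0.59. Members did not vary as a single block. The correlation of a member with the sum of the others across 12 libraries had a median of 0.41, ran from -0.54 to 0.94 and was negative for 12 members, a description of libraries that share treatments and scaling.

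The first comparison asked how olaparib changed these genes relative to vehicle. Most members differed little. Of the 76 members, 5 rose (6.58%) and 5 fell (6.58%) at an adjusted p under 0.05, while 14.3% of all 12849 tested genes rose and 12.8% fell. The members' median log2 fold change was -0.04 against 0 for all tested genes, and their range was -0.66 to 0.59. In absolute terms the median change was 0.13 on the log2 scale, compared with 0.24 over all tested genes. Under 0.2 lay 67.1% of members and 42.9% of tested genes. The lowest mean count of a member was 178.7, whereas the filter for tested genes had a minimum count of 10. Genes of matching level were not compared, so the narrower spread is not set apart from level. The libraries of the groups did not overlap for 10 members higher in olaparib and 14 lower, where 20.7% and 20.3% of all genes did so. Without MNA replicate 2, whose removal lowered the common dispersion of the joint fit from 0.0333 to 0.0123, 9 members rose and 14 fell (22.5% and 21.2% of all tested genes). By name, 4 of 47 large subunit genes rose and 3 fell, as did 1 and 2 of 29 small subunit genes. The riser with a small subunit name was Mrps36, which is not a small subunit protein despite its symbol.

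**Figure D2:**
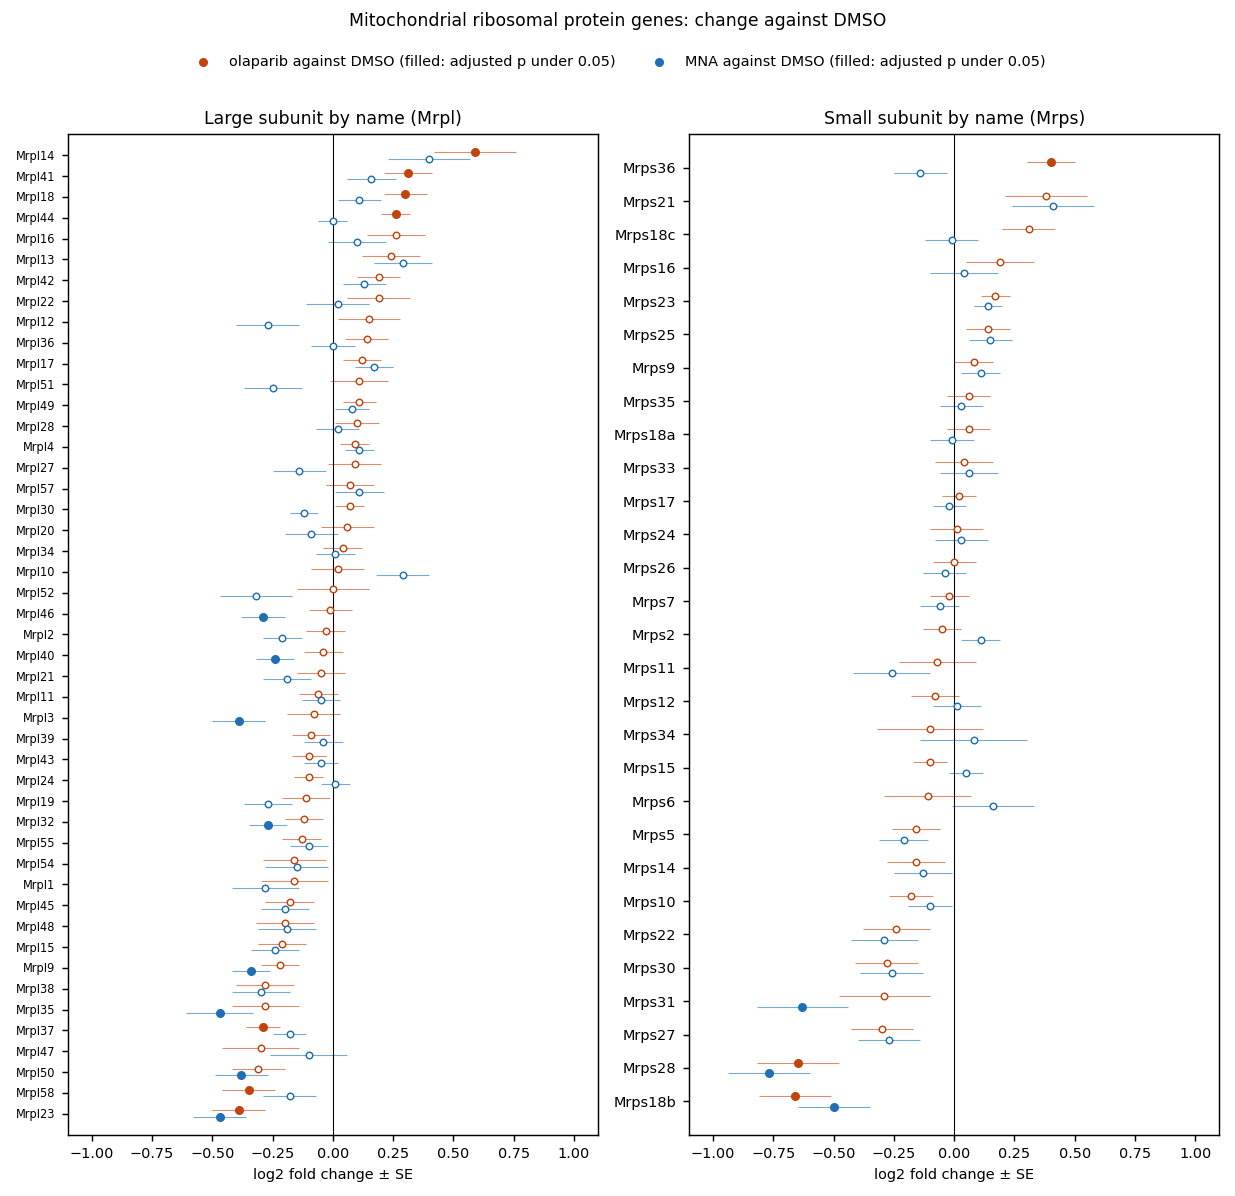
Change of every member against DMSO (x axis, log2 fold change ± SE of the fit to 12 libraries), with large subunit names on the left, small subunit names on the right and filled points for an adjusted p under 0.05. With olaparib the members spread from -0.66 (Mrps18b) to 0.59 (Mrpl14), and with MNA all 11 filled points lie left of 0.

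Mrps18b, a small subunit protein of the S18 family counted here as mitochondria-specific (GRCm38 chr17:35910379-35916389), fell most. Its level was 16.3, 12.7, 12.1 and 13.6 CPM in DMSO replicates 1 to 4, and 9.86, 9.08, 8.08 and 7.59 CPM in olaparib. All olaparib libraries were below all DMSO libraries, with a log2 fold change of -0.66 ± 0.15 (SE, adjusted p = 0.00862). An antisense transcript, Gm16279, overlaps 30.5% of its exons, and 16.7% of its 31-base words also occur in Gm13552, so part of its count could belong elsewhere. Mrps18c, the small subunit member with the bacterial counterpart, had 16.5, 13.8, 13.6 and 13.1 CPM in DMSO and 17.1, 17.8, 16.9 and 18.4 in olaparib (log2 fold change 0.31 ± 0.11, adjusted p = 0.0501), and Mrps18a, in the large subunit, gave 0.06 ± 0.09 (adjusted p = 0.641). Among the 3 paralogs Mrps18b was the only call, and the differences between them were not tested.

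Mrps28, the mitochondrial relative of bacterial S1 (chr3:8802146-8923918), was at 20.8, 20.3, 19.3 and 18.2 CPM in DMSO and at 12.4, 11.5, 13.6 and 12.6 CPM in olaparib. No library of one group reached the other, and Mrps28 changed by -0.65 ± 0.17 on the log2 scale (adjusted p = 0.0172). Mrpl23, a protein at the exit tunnel (chr7:142532686-142540747), had 27.1, 25.8, 26.9 and 27.1 CPM in DMSO and 21.1, 19.7, 20.6 and 20.3 in olaparib. Its groups were narrow and separate, at -0.39 ± 0.11 on the log2 scale (adjusted p = 0.0242). Other genes hold 14.0% of its 31-base words, chiefly the pseudogene Mrpl23-ps1, which had a mean of 9.42 counts.

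Mrpl37, a mitochondria-specific large subunit protein, was at 30.3, 29.5, 32.4 and 28.1 CPM in DMSO and at 25.2, 23.97, 23.5 and 25.6 in olaparib. The groups were separate, and it fell by 0.29 on the log2 scale (SE 0.07, adjusted p = 0.0145). Mrpl58, also known as Ict1, is a peptidyl-tRNA hydrolase that rescues stalled mitochondrial ribosomes. It was at 12.2, 9.98, 9.99 and 11.3 CPM in DMSO and at 7.95, 8.72, 8.41 and 8.88 in olaparib, with separate groups and a log2 change of -0.35 ± 0.11 (adjusted p = 0.0363). With the replicate number as a block its adjusted p was 0.0519.

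Among the members that rose, Mrpl14, a universally conserved protein at the face of the large subunit (chr17:45686322-45698495), changed most. It was at 6.89, 7.12, 5.23 and 6.00 CPM in DMSO and at 9.33, 8.998, 9.002 and 10.52 CPM in olaparib. The groups were separate, with a log2 fold change of 0.59 ± 0.17 (adjusted p = 0.0229), and the protein-coding gene Tmem63b overlaps 11.2% of its exons from the opposite strand. Mrps36, the 2-oxoglutarate dehydrogenase adaptor, was at 21.2, 24.2, 20.3 and 20.4 CPM in DMSO and at 25.5, 28.2, 31.2 and 28.6 in olaparib. It rose by 0.40 ± 0.10 (adjusted p = 0.0161), and 21.0% of its words are found in other genes, its own pseudogenes among them.

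Mrpl44, a large subunit protein with a ribonuclease III-like fold, was at 26.8, 25.01, 24.6 and 25.3 CPM in DMSO and at 28.4, 31.8, 31.6 and 29.9 in olaparib (log2 fold change 0.26 ± 0.06, adjusted p = 0.0119). Mrpl41, a mitochondria-specific large subunit protein, was at 14.3 to 16.8 CPM in DMSO and 18.2 to 20.9 in olaparib (0.31 ± 0.10, adjusted p = 0.0327). Mrpl18, a protein of the central protuberance, was at 13.6 to 15.4 CPM in DMSO and 16.6 to 19.96 in olaparib (0.30 ± 0.09, adjusted p = 0.0327). Gm6434 holds 21.1% of the words of Mrpl41 and Gm13675 holds 10.4% of those of Mrpl18, and Tcp1 overlaps 10.1% of the Mrpl18 exons from the opposite strand. In each of these genes the lowest olaparib library was above the highest DMSO library.

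Of the 10 calls with olaparib, those of Mrps18b, Mrps28, Mrpl37 and Mrpl44 held when any 1 of the 12 libraries was left out. The call of Mrps36 was lost without olaparib replicate 3 (adjusted p = 0.0502) and that of Mrpl14 without DMSO replicate 3 or 4 or olaparib replicate 4 (up to 0.0694). Those of Mrpl41, Mrpl18, Mrpl23 and Mrpl58 were lost without olaparib replicate 3 or 4 and without 2 to 4 further DMSO or olaparib libraries, with adjusted p up to 0.0939, 0.0999, 0.0621 and 0.0904.

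**Figure D3:**
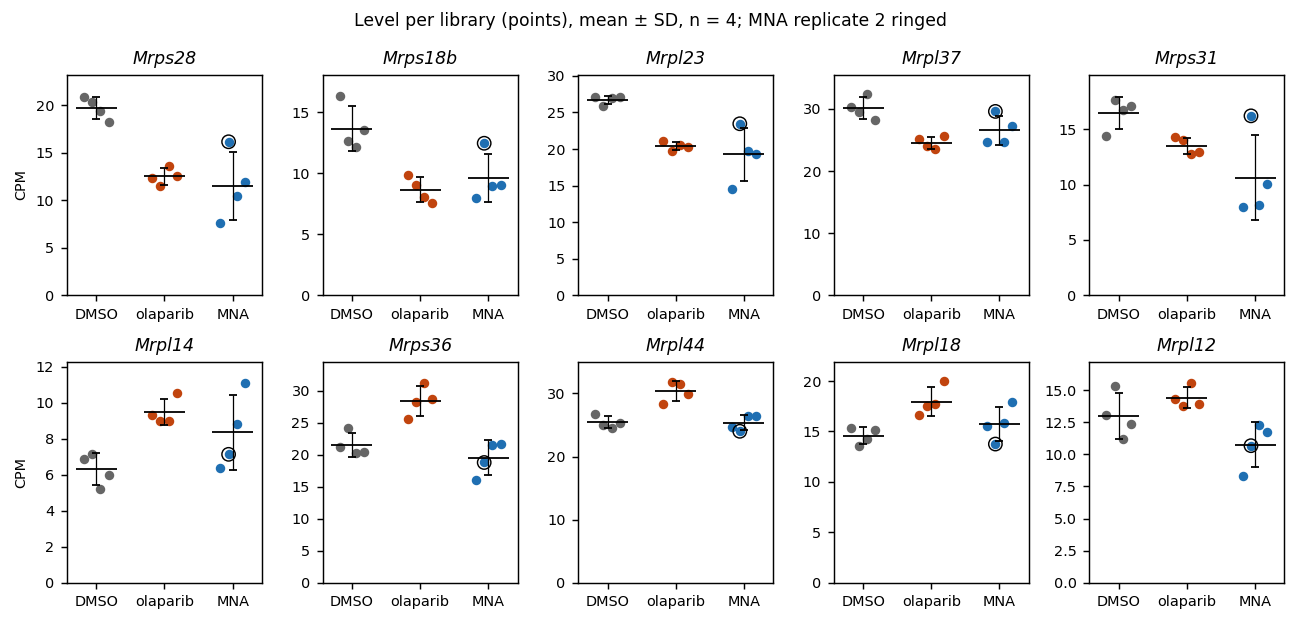
Level in each library (points, CPM) of 10 members called in a comparison, by treatment, with the mean and SD of 4 libraries and MNA replicate 2 ringed. For the 5 genes of the upper row MNA replicate 2 is the highest MNA library, and Mrps36 and Mrpl44 are high only in olaparib.

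The second comparison asked the same of MNA, with the same DMSO libraries as control. No member rose and 11 fell (14.5%), while 16.3% of tested genes rose and 12.3% fell. The members' share of falls was thus close to that of all genes. The median log2 fold change of the members was -0.08 against 0 for all tested genes, with a range of -0.77 to 0.41. An unadjusted p under 0.05 was met by 23 of the 76 members in either direction. The share of all tested genes at that unadjusted limit is not given here. It is at least the 16.3% and 12.3% called at an adjusted p under 0.05, so the 23 cannot be set against it. Under DESeq2 1 member rose. The libraries did not overlap for 2 members higher and 7 lower, beside 6.24% and 6.12% of all genes. Without MNA replicate 2, 6 members rose and 28 fell (7.89% and 36.8%), beside 27.2% and 26.9% of the 13023 genes then tested, and the median was -0.10. All 11 calls were among the 28, and none of the 11 held when each of the 12 libraries was left out in turn: without MNA replicate 3, and without MNA replicate 4, 0 members fell.

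Mrps28 had the lowest fold change with MNA. Its libraries were at 7.61, 16.2, 10.4 and 11.9 CPM in replicates 1 to 4, below the lowest DMSO library at 18.2, and the log2 fold change was -0.77 ± 0.17 (adjusted p = 0.0159) or -0.98 ± 0.13 (adjusted p = 1.87e-05) without replicate 2. Mrps31, a mitochondria-specific small subunit protein, was at 14.3, 17.6, 16.8 and 17.1 CPM in DMSO and at 7.98, 16.2, 8.18 and 10.1 CPM in MNA. Replicate 2 was inside the DMSO range and the other 3 libraries were far below it. Its log2 fold change was -0.63 ± 0.19 (adjusted p = 0.0307), and -0.92 ± 0.11 (adjusted p = 6.98e-06) without replicate 2.

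Mrps18b was at 7.98, 12.5, 8.95 and 9.05 CPM in MNA, so that replicate 2 alone overlapped the DMSO libraries (log2 fold change -0.50 ± 0.15, adjusted p = 0.0296, and -0.66 ± 0.12, adjusted p = 0.000525, without it). Mrpl35 gave -0.47 ± 0.14 (adjusted p = 0.0288) and Mrpl23 -0.47 ± 0.11 (adjusted p = 0.0175). Mrpl23 was at 14.6, 23.5, 19.7 and 19.3 CPM in MNA, all of them below the DMSO range. Without replicate 2 Mrpl35 was at -0.63 and Mrpl23 at -0.58. The remaining calls, all large subunit names, were Mrpl3 at -0.39, Mrpl50 at -0.38, Mrpl9 at -0.34, Mrpl46 at -0.29, Mrpl32 at -0.27 and Mrpl40 at -0.24 on the log2 scale, and they ran from -0.54 (Mrpl50) to -0.26 (Mrpl40) without replicate 2. By name, 8 of 47 large and 3 of 29 small subunit genes fell, and by origin 6 of 44 with a bacterial counterpart and 5 of 32 mitochondria-specific ones.

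The highest changes with MNA missed the threshold. Mrps21, the relative of bacterial S21, was at 25.2, 28.7, 24.9 and 24.3 CPM in DMSO and at 27.3, 24.3, 40.7 and 44.8 CPM in MNA (log2 fold change 0.41 ± 0.17, adjusted p = 0.0754). Replicates 3 and 4 were high and replicates 1 and 2 overlapped DMSO. Mrpl14 gave 0.40 ± 0.17 (adjusted p = 0.0823) and Mrpl13 0.29 ± 0.12 (adjusted p = 0.0734). All of them passed without replicate 2, Mrps21 at 0.54 ± 0.13 (adjusted p = 0.00279). The largest falls that passed only without it were Mrps22 at -0.47, Mrpl38 at -0.46 and Mrpl1 at -0.45. The genes gained in olaparib against DMSO in that fit were led by Mrpl50 at -0.31, Mrps27, a pentatricopeptide protein, at -0.30 and Mrps31 at -0.29 among falls, and by Mrps21 at 0.38, Mrps18c at 0.31 and Mrpl13 at 0.24 among rises.

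Mrps28, Mrps18b and Mrpl23 passed in both comparisons, which is 3 of the 5 falls with olaparib and 3 of the 11 with MNA. The comparisons share their 4 DMSO libraries, so values are given side by side and not as an overlap. Mrps28 changed by -0.65 and -0.77, Mrps18b by -0.66 and -0.50 and Mrpl23 by -0.39 and -0.47 with olaparib and MNA. With MNA replicate 2 in the fit, olaparib and MNA differed by 0.12 in Mrps28 (95% interval -0.26 to 0.50, log2 scale). The differences were -0.15 (-0.48 to 0.17) in Mrps18b and 0.08 (-0.16 to 0.33) in Mrpl23. A difference of up to about those bounds was not resolved with 4 libraries a group. Without MNA replicate 2, the MNA changes against DMSO were -0.98 for Mrps28, -0.66 for Mrps18b and -0.58 for Mrpl23. Those with olaparib were -0.65, -0.66 and -0.39.

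The direct comparison of olaparib with MNA gave 4 members higher in olaparib and 0 lower, where 10.9% of tested genes were higher and 10.9% lower. The members' median was 0.04 against -0.01 for all tested genes. An unadjusted p under 0.05 was reached by 11 members in either direction. The share of all tested genes at that unadjusted limit is not given here, and is at least the called 10.9% and 10.9%. DESeq2 called 8 members higher and 0 lower. Groups were separate for 6 members higher and 0 lower, beside 11.5% and 9.69% of all genes. Without MNA replicate 2, 16 members were higher and 1 lower (21.5% and 20.7% of all genes), and the median was 0.09.

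Mrps36 differed most, with olaparib at 25.5 to 31.2 CPM and MNA at 16.04, 18.8, 21.6 and 21.7 CPM. The groups did not overlap and the log2 difference was 0.54 ± 0.11 (adjusted p = 0.0041), which held with any library left out. Mrpl44 was 0.26 ± 0.06 higher (adjusted p = 0.0126). In MNA it was at 24.7, 24.00, 26.4 and 26.4 CPM, within or just below the DMSO range, and the call also held with any library left out. Mrpl12, the stalk protein that also binds the mitochondrial RNA polymerase, was at 14.3, 13.8, 15.6 and 13.9 CPM in olaparib and at 8.31, 10.7, 12.3 and 11.7 in MNA. Its log2 difference was 0.42 ± 0.13 (adjusted p = 0.0374, and 0.0526 with the replicate block), whereas against DMSO it gave 0.15 ± 0.13 (adjusted p = 0.406) for olaparib and -0.27 ± 0.13 (adjusted p = 0.124) for MNA. Mrpl46 was 0.28 ± 0.09 higher (adjusted p = 0.0394). The calls for Mrpl12 and Mrpl46 were lost when any 1 of 7 and any 1 of 9 libraries was left out, with adjusted p up to 0.0920 and 0.107.

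At the other end were Mrps6 at -0.28 ± 0.18 (adjusted p = 0.286), Mrpl10, which anchors the stalk, at -0.27 ± 0.11 (adjusted p = 0.0968) and Mrpl47 at -0.20 ± 0.16 (adjusted p = 0.42). Mrpl10 was at 23.9 to 26.8 CPM in olaparib and at 31.3, 23.4, 32.9 and 36.3 CPM in MNA, where replicate 2 alone lay in the olaparib range. It was the member lower in olaparib once that library was left out (-0.39 ± 0.07, adjusted p = 0.000539). Mrpl10 and Mrpl12 form the stalk together, and their MNA means lay on opposite sides of the DMSO means, at 30.95 against 25.3 CPM for Mrpl10 and 10.75 against 12.97 CPM for Mrpl12. Against DMSO, Mrpl10 gave 0.29 ± 0.11 with MNA (adjusted p = 0.0626), and it rose once replicate 2 was left out (0.40 ± 0.07, adjusted p = 0.000233), while Mrpl12 did not pass in either fit (adjusted p = 0.124 and 0.113).

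Other members with known roles did not pass with all libraries in the fit. Mrps12, at the decoding centre, changed by -0.08 ± 0.10 with olaparib (adjusted p = 0.543) and 0.01 ± 0.10 with MNA (adjusted p = 0.932). Mrpl45, which sits at the exit tunnel and holds the ribosome to the inner membrane, gave -0.18 ± 0.10 (adjusted p = 0.165) and -0.20 ± 0.10 (adjusted p = 0.116), and without MNA replicate 2 it passed with MNA (-0.29, adjusted p = 0.00892). Mrps30, in the large subunit despite its name, gave -0.28 ± 0.13 (adjusted p = 0.129) and -0.26 ± 0.13 (adjusted p = 0.135). Without MNA replicate 2 Mrps30 passed in both, at -0.28 (adjusted p = 0.0321) and -0.40 (adjusted p = 0.00592). Mrpl34, among the highest per length, gave 0.04 ± 0.08 (adjusted p = 0.715) and 0.01 ± 0.08 (adjusted p = 0.911). Dap3, a small subunit GTPase outside the naming rule, gave -0.04 ± 0.07 (adjusted p = 0.673) and -0.06 ± 0.07 (adjusted p = 0.496), and none of the 5 tested mitoribosomal proteins with other symbols passed in any comparison, though 1 rose with MNA without replicate 2. At an unadjusted p under 0.05 there were 0 of the 5 for either treatment relative to vehicle and 1 between the treatments.

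**Figure D4:**
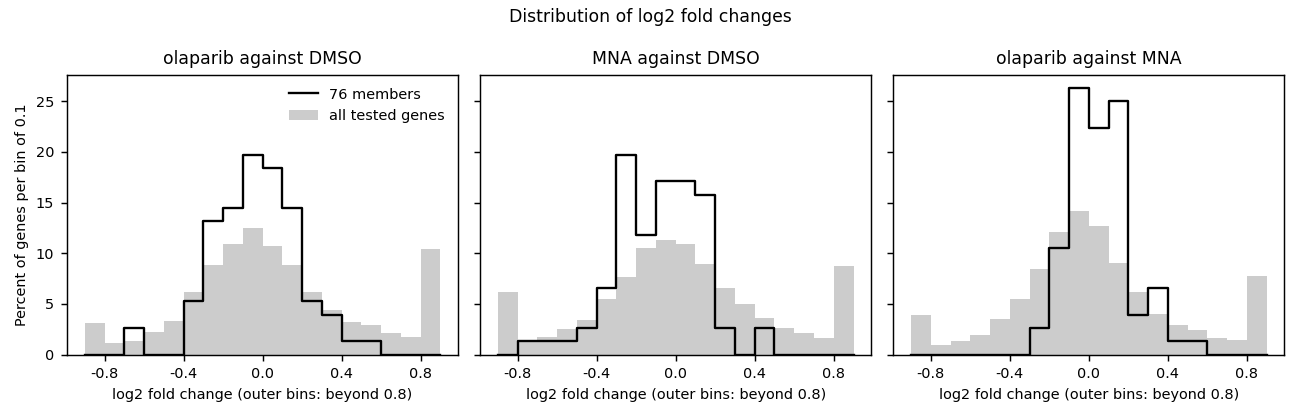
Distribution of log2 fold changes in bins of 0.1 (x axis, outer bins hold values beyond 0.8) for the 76 members (line) and all tested genes (bars), as percent of genes per bin, in the 3 comparisons. The members crowd around 0 and none lies beyond 0.8 in either direction, where all tested genes have outer bars on both sides. The tested genes include ones with lower counts than any member.

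Calls fell on members with and without these promoter cores, and no difference between them was tested. Of the 7 members with an NRF1 core, 0 rose and 1 fell with olaparib, and 3 fell with MNA, compared with 5, 3 and 7 of the 60 without it. Of the 23 with an ETS core, 1 rose and 2 fell with olaparib and 2 fell with MNA, compared with 4, 2 and 8 of the 44 without. The median change with olaparib was 0.04 with and -0.06 without an ETS core. Members with longer exons had somewhat lower changes with olaparib (Spearman rho -0.32 over 76 genes) and those with higher levels per length somewhat higher ones (0.39), and the values were -0.17 and 0.22 for MNA. These are descriptions across genes of the same libraries.

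The summed level of the members put the treatments within a narrow band. It was 1804, 1842, 1792 and 1784 CPM in DMSO replicates 1 to 4 and 1763, 1758, 1783 and 1830 CPM in olaparib. In MNA it was 1539, 1773, 1742 and 1778 CPM, so that replicate 1 was below all other libraries and the rest lay just under the DMSO range. In MNA replicate 1 the median member was 0.25 lower on the log2 scale than the DMSO mean, and 15 of 76 members were above it. The same library had the lowest summed cytosolic ribosomal proteins (24450 CPM, other MNA libraries 28360 to 31440) and nuclear respiratory chain genes (6529 CPM, other MNA libraries 7193 to 7521).

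The messenger RNAs that this ribosome translates were higher in many cases. Of 13 mitochondrially encoded mRNAs 12 were tested, and 10 rose with olaparib (median log2 fold change 0.60) and 8 with MNA (0.54), with 0 falling in either and MNA values from -0.24 upward. Their summed level was 13350, 10270, 10850 and 11190 CPM in DMSO, 17620, 15970, 17110 and 18270 in olaparib and 22310, 11240, 16570 and 15870 in MNA. All olaparib libraries were above DMSO, MNA replicate 2 lay among the DMSO libraries, and MNA replicate 1, which had the least of the ribosomal protein mRNAs, had the most of the mitochondrial ones. The call with the largest value was mt-Nd6 in olaparib (0.80 ± 0.16, adjusted p = 0.00391) and mt-Co3 in MNA (0.70 ± 0.17, adjusted p = 0.019). Counts of mt-Co2, mt-Co3 and mt-Atp6 were low, with 8.70 ± 1.23 CPM in DMSO for mt-Co3 beside 5833 ± 681 for mt-Co1. The olaparib count of 10 was 2 without DMSO replicate 2, 3 or 4 or olaparib replicate 4, and 6 without olaparib replicate 1. The MNA count of 8 was 0 without DMSO replicate 2 or MNA replicate 1, 3 or 4, 1 without DMSO replicate 3 or 4, and 10 without MNA replicate 2.

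Nuclear respiratory chain and ATP synthase genes, whose products assemble with the mitochondrially encoded ones, showed 34 rises and 1 fall among 77 tested genes with olaparib (44.2% and 1.3%, median 0.25), and 3 rises and 10 falls with MNA (median -0.04). Without MNA replicate 2 there were 45 rises and 1 fall with olaparib and 8 rises and 17 falls with MNA. Their summed level was 7214 to 7690 CPM in DMSO, 8653 to 9311 in olaparib and 6529 to 7521 in MNA. The olaparib count was 19 to 21 without DMSO replicate 3 or 4 or olaparib replicate 3 or 4. Cytosolic ribosomal proteins gave 7 rises and 1 fall of 79 with olaparib and 0 and 9 with MNA. Without MNA replicate 2 these became 14 and 4 with olaparib and 5 and 40 with MNA. Whether these lists differ from the members was not tested.

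**Figure D5:**
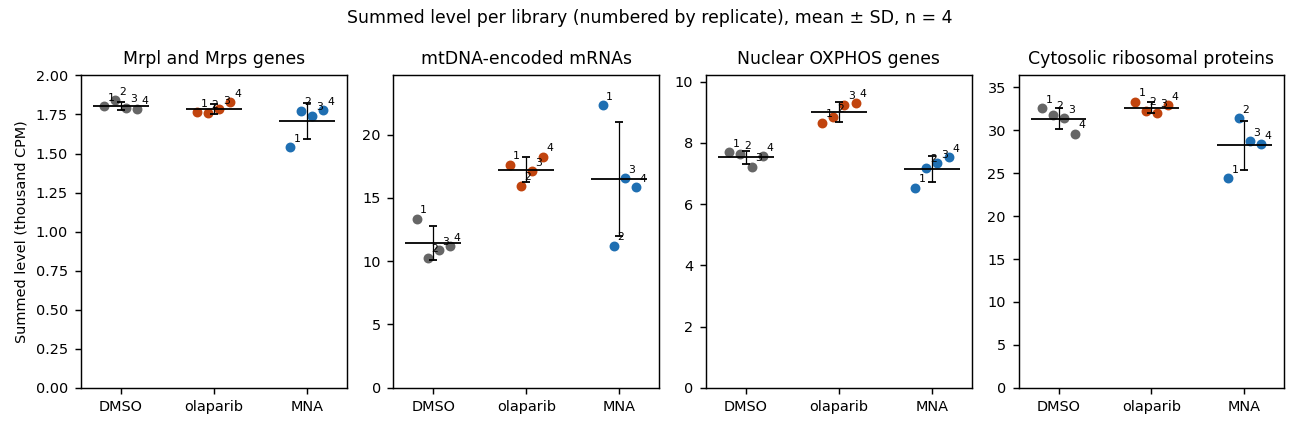
Summed level per library (units of 1000 CPM, axes from 0, points numbered by replicate, mean ± SD of 4 libraries) of the 76 members, the mitochondrially encoded mRNAs, nuclear respiratory chain genes and cytosolic ribosomal proteins. The members stay between 1784 and 1842 CPM in DMSO and 1758 and 1830 CPM in olaparib, while the mitochondrial mRNAs rise from 10270 to 13350 CPM to 15970 to 18270 CPM.

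The rest of the mitochondrial translation machinery was counted by list, and most counts grew when MNA replicate 2 was left out. Of 28 assembly factors of the mitochondrial ribosome 0 rose and 4 fell with olaparib, led by Mterf3 (-0.51 ± 0.14, adjusted p = 0.0189), which takes part in ribosome assembly. With MNA 1 rose, Noa1 (0.54 ± 0.13, adjusted p = 0.0168), and 4 fell, led by Mettl17 (-1.05 ± 0.27, adjusted p = 0.0202, and -1.52 without replicate 2). Without that library 1 assembly factor rose and 8 fell with olaparib, and 4 rose and 10 fell with MNA. Noa1, a GTPase, was also 0.60 ± 0.13 lower in olaparib than in MNA (adjusted p = 0.0061). Of 15 translation factors 0 passed with olaparib, where 1 had an unadjusted p under 0.05, and with MNA 1 rose (Mtif2, an initiation factor, 0.31 ± 0.08, adjusted p = 0.0192) and 2 fell (Mtrf1, a release factor, -0.56 ± 0.13, adjusted p = 0.0173). Without replicate 2 the translation factors gave 0 rises and 1 fall with olaparib and 3 and 6 with MNA.

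Of 17 mitochondrial tRNA synthetases, 1 fell with olaparib, Wars2 at -0.47 ± 0.12 (adjusted p = 0.0123), and 1 rose with MNA, Cars2 at 0.42 ± 0.13 (adjusted p = 0.0301), and without MNA replicate 2 the rises and falls were 1 and 4 with olaparib and 1 and 7 with MNA. Import and chaperone genes had 1 fall of 20 with olaparib, the protease Lonp1 (-0.71 ± 0.18, adjusted p = 0.0146), and with MNA 1 rise, Spg7 (0.26 ± 0.07, adjusted p = 0.0232), and 6 falls, led by Hspa9, the matrix heat shock protein (-1.09 ± 0.35, adjusted p = 0.0368, and -1.77 without replicate 2). Without that library 5 of the list fell with olaparib and 12 with MNA. The summed level of the list was 2461 to 2496 CPM in DMSO, 1847 to 1935 in olaparib and 1435, 2478, 1565 and 1513 in MNA. Among 15 genes of mitochondrial transcription and RNA processing was Tfam, which packages mitochondrial DNA and helps to start its transcription. Tfam fell with olaparib (-0.50 ± 0.13, adjusted p = 0.0145) and with MNA (-0.47 ± 0.13, adjusted p = 0.024). Ssbp1 rose with olaparib (0.43 ± 0.13, adjusted p = 0.0267). In all 2 of this list rose and 1 fell with olaparib and 1 rose and 3 fell with MNA, or 2 and 4 and 3 and 8 without MNA replicate 2. Polrmt, the mitochondrial RNA polymerase, gave -0.24 ± 0.11 (adjusted p = 0.128) and -0.15 ± 0.11 (adjusted p = 0.295), and it passed without replicate 2, at -0.24 with olaparib (adjusted p = 0.0266) and -0.27 with MNA (adjusted p = 0.0165).

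Of 15 tested regulators of mitochondrial genes, 11 fell and 1 rose with olaparib (73.3% and 6.67%, median -0.33), and 4 fell and 0 rose with MNA, or 7 and 0 without replicate 2. Nrf1 fell with olaparib (-0.39 ± 0.10, adjusted p = 0.0132) and gave -0.18 ± 0.10 with MNA (adjusted p = 0.154), where it fell without replicate 2 (-0.29, adjusted p = 0.00667). Gabpa, the DNA-binding subunit of GABP, fell by 0.26 on the log2 scale with olaparib (SE 0.06, adjusted p = 0.0101) and gave 0.02 ± 0.06 with MNA (adjusted p = 0.849). Myc gave -0.21 ± 0.10 (adjusted p = 0.141) and 0.18 ± 0.10 (adjusted p = 0.195), and was 0.39 lower in olaparib than in MNA (-0.39 ± 0.10, adjusted p = 0.0191). Esrra was the riser with olaparib (0.36 ± 0.09, adjusted p = 0.0117), and Ppargc1a, at 0.863 CPM in DMSO, had the lowest value (-2.91 ± 0.92, adjusted p = 0.0358). The count of 11 was 6 without DMSO replicate 3 and 7 without olaparib replicate 4.

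Genes of cell division and markers of other cell types were counted as well. Of 20 proliferation genes 9 rose with olaparib and 5 with MNA (16 and 14 without MNA replicate 2, with 1 fall with MNA), with summed levels of 383 to 480.3 CPM in DMSO, 572 to 735 in olaparib and 406 to 703 in MNA. Neutrophil markers, 9 genes, summed to 1.34 to 10.6 CPM in DMSO, 2.93 to 3.89 in olaparib and 1.33 to 68.2 in MNA, and erythroid markers, 6 genes, to 0.0634 to 3.94, 0 to 0.210 and 0 to 55.9 CPM, the highest of each in MNA replicate 4. Lymphoid markers, 8 genes, summed to 2.77 to 5.19, 12.2 to 20.5 and 3.72 to 10.6 CPM, dendritic cell markers, 6 genes, to 17.5 to 20.9, 18.03 to 22.9 and 18.1 to 26.6 CPM, and stromal markers, 6 genes, to 0.301 to 0.422, 0.671 to 1.81 and 0.716 to 2.57 CPM. Markers of eosinophils, basophils and mast cells, 8 genes, summed to 3.96 to 7.39, 30.5 to 58.2 and 4.94 to 10.48 CPM, nearly all of it from Siglecf, at a mean of 4.76 CPM in DMSO and 46.4 in olaparib (3.28 ± 0.27 on the log2 scale, adjusted p = 2.51e-05). Ly6g was at 0 in all but MNA replicate 4, Hba-a2 in all libraries and Prg2 in DMSO and olaparib. Of the 6 lymphoid markers tested, 2 rose with olaparib, and 5 rose and 1 fell with MNA. The part of these in the members' values was not tested. In bulk RNA, fewer cells of a type and less RNA per cell cannot be told apart.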

How the data were processed

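Libraries were made from bulk RNA with the Illumina Stranded mRNA Prep kit. The authors aligned reads with STAR 2.5.2b to mouse GRCm38.p5 with Ensembl 99 gene models and deposited raw counts per gene and library. Which strand setting was used for counting is not given in the sources used here, so antisense partners cannot be told apart. The counts were used as deposited. IDs were joined to symbols for 34490 of 35275 genes, and lengths and overlaps were taken from the GENCODE vM21 annotation (same build).

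Libraries were grouped by their labels. A single edgeR 4.0.16 quasi-likelihood fit of 12 libraries with TMM scaling and filterByExpr (12849 genes tested, R 4.3.3) gave log2 fold changes, SE and Benjamini-Hochberg adjusted p over all tested genes. No block was used. Same-numbered olaparib and DMSO libraries deviated together (r = 0.249, 0.209, 0.292 and 0.421), and differently numbered ones reached 0.105, 0.004, -0.046 and -0.084. The numbers may therefore pair these groups, which neither the labels nor the paper state. The main fit does not use such a pairing, and the replicate block is given as an alternative. For MNA with DMSO the same-numbered values were 0.297, 0.128, -0.025 and 0.256, and differently numbered libraries reached -0.073, 0.185, 0.142 and 0.028. For olaparib with MNA they were 0.079, 0.159, 0.165 and 0.39, and differently numbered libraries reached 0.136, -0.06, -0.025 and 0.045. The same number did not give the higher value in every replicate, so pairing was not clear for MNA. Deviations were taken from group means that included MNA replicate 2. In simulated data the fit was tested for recovery of known changes, but no outcome is given here and nothing rests on it. The paper describes macrophages from 4 donor mice per experiment, but neither it nor the labels say which mouse each library came from. P-values measure the spread between libraries.

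Members and lists were chosen with earlier results of these data known. Genes named were, per comparison, up to 5 called members at each end, or the 3 most extreme where fewer than 3 were called, the 5 highest and 3 lowest per kilobase, members with known roles, and the called gene with the largest change in each related list and direction. A few others are named to complete a count. Shared sequence was the percent of a gene's 31-base words (all isoforms) found in another gene, and exceeded 10% in 17 members, and exon overlap with another gene exceeded 10% in 16. Alternatives were DESeq2 1.42.0, other scalings, filters and thresholds, the replicate block, the groups compared alone and each library left out. The part of counting error in the spread between libraries was not tested.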

Additional observations from a re-analysis of the deposited data

Results flagged for a closer look

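Of 120 groups of 4 libraries examined, for 34 named members and 6 summed levels, 8 held a library whose gap to the nearest of the others, as a share of the group's range, exceeded Dixon's 95% critical value, and chance alone gives about 1 in 20 groups. The summed level of the members was 1539 CPM in MNA replicate 1, with the other MNA libraries at 1742 to 1778. Mrpl34 was at 22.54 CPM in the same library, the others at 25.16 to 25.68, and Mrpl32 at 17.66 CPM in MNA replicate 2, the others at 14.68 to 15.13. In DMSO replicate 2, Mrpl13 was at 28.52 CPM (others 23.58 to 24.02), Mrpl23 at 25.84 CPM (others 26.91 to 27.08) and Mrpl3 at 46.14 CPM (others 51.33 to 51.52). Mrpl32 was at 20.07 CPM in DMSO replicate 3 (others 18.28 to 18.41) and Mrpl46 at 13.27 CPM in DMSO replicate 1 (others 14.24 to 14.38).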

How the results depend on the processing

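Counts of called members moved with the settings in every comparison. The share of all tested genes called also moved, from 14.3% to 22.5% rising with olaparib when MNA replicate 2 was left out. Shares of all genes under the other settings are not given here, so these counts do not set the members apart from other genes. With DESeq2, 1 member rose with MNA and 8 were higher in olaparib than in MNA (4 as reported). With upper-quartile scaling 7 were higher, with library totals alone 2, without a filter 2 and with a mean of at least 50 counts 8. Without a filter 3 members rose with olaparib against DMSO in place of 5. With the 2 groups alone, 10 rose and 15 fell with olaparib, 0 fell with MNA in place of 11, and 2 were higher in olaparib than in MNA, while the list counts were 55 respiratory chain genes up with olaparib (34) and 0 mitochondrial mRNAs up with MNA (8). At an adjusted p under 0.01, 0 members rose and 1 fell with olaparib, 0 fell with MNA and 1 was higher in olaparib than in MNA, and the lists gave 1 mitochondrial mRNA (10), 17 respiratory chain genes and 4 falling regulators (11) with olaparib and 0 mitochondrial mRNAs with MNA. The list alternatives were added after seeing the data. The members' median with olaparib was -0.01 under upper-quartile scaling (-0.04).

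Leaving out 1 library at a time gave ranges. With olaparib 2 to 9 members rose and 3 to 14 fell, with a median of -0.05 to 0. With MNA 0 to 6 rose and 0 to 28 fell. In olaparib against MNA 2 to 16 were higher and 0 to 1 lower, with a median of 0 to 0.09. For the lists the ranges were 2 to 10 mitochondrial mRNAs, 19 to 45 respiratory chain genes and 6 to 11 regulators with olaparib, and 0 to 10 mitochondrial mRNAs with MNA. The highest counts of members were those without MNA replicate 2. The lowest were those without DMSO replicate 3 or 4 or olaparib replicate 3 or 4 (2 rises with olaparib), without DMSO replicate 4 or olaparib replicate 2 or 3 (3 falls), without MNA replicate 3 or 4 (0 falls with MNA, and 3 or 4 without MNA replicate 1 or DMSO replicate 2, 3 or 4), and without DMSO replicate 4, olaparib replicate 1, 3 or 4 or MNA replicate 1 (2 higher in olaparib than in MNA). The replicate block ended the calls of Mrpl58 and Mrpl12 (adjusted p = 0.0519 and 0.0526) and no other member's call. With the block and without MNA replicate 2, 10 rose and 15 fell with olaparib, 6 rose and 28 fell with MNA, and 14 were higher and 1 lower in olaparib than in MNA, with a median of 0.09. No called value changed sign. The cause of these shifts was not tested.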
